A study of Homo sapiens with 16 samples.

Results

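The genes described here are 10 genes of cellular iron handling, chosen by name: TFRC, TFR2 and SLC11A2 for uptake, SLC25A37 for delivery to mitochondria, FTH1 and FTL for storage, SLC40A1 for export, IREB2 and ACO1 for control, and HMOX1 for release of iron from haem. They are 10 of the 35052 genes that could be assembled from the transcript tables, and 9 of them passed the filter on low counts. HMOX1 did not. They were followed in K562, an established human leukaemia cell line with erythroid features and a wild-type genotype, during treatment with 25 nM PMA. PMA is a phorbol ester that activates protein kinase C and drives K562 cells towards a megakaryocyte-like state. RNA was taken before treatment (0 h), after 0.5 and 1.5 h, after 3 and 6 h, and after 24, 48 and 72 h, with 2 libraries per time point and 16 in all, and the 0 h libraries are the untreated control that every comparison with 0 h shares. The medium was renewed after 24 and 48 h, so the libraries of 48 and 72 h differ from the earlier ones in this too. The labels name 1 cell line and do not say whether the 2 libraries of a time came from separate cultures, so p-values measure the spread between libraries, which may be technical.

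Most cells take up iron as transferrin bound to the transferrin receptor TFRC, release it in the endosome and pass it to the cytosol through the transporter SLC11A2 (DMT1). Iron that is not used by mitochondria is stored in ferritin, a shell of heavy (FTH1) and light (FTL) subunits, or leaves the cell through ferroportin (SLC40A1). When iron is scarce, the iron regulatory proteins ACO1 (IRP1) and IREB2 (IRP2) bind hairpins called iron-responsive elements, which blocks translation where the hairpin lies in a 5′ UTR and protects the messenger RNA where it lies in the 3′ UTR of TFRC. Erythroid cells need large amounts of iron for haem, and SLC25A37 (mitoferrin-1) is the mitochondrial importer characteristic of them. TFR2 is a second transferrin receptor that is also present in erythroid cells, beside the main receptor TFRC.

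Sequences in the members that match this hairpin are shown first, since it is what the iron regulatory proteins recognise. A search of the sense strand of spliced GENCODE 29 transcripts (GRCh38) looked for CNNNNNCAGTGN followed by 5 bases able to pair with the 5 before the loop, G-T pairs allowed, and 4 members held such a loop with no mispaired base. Capitals mark the 5 fixed letters of the loop, whose sixth letter can be any base, and each run has 29 bases, 5′ to 3′. FTH1, FTL and SLC40A1 each hold 1 loop in the 5′ UTR, at chr11:61967574-61967602 (minus strand), chr19:48965335-48965363 (plus strand) and chr2:189580661-189580689 (minus strand).
FTH1: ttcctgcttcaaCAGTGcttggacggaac
FTL: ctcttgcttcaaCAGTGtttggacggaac
SLC40A1: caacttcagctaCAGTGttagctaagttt
TFRC holds 4 such loops in its 3′ UTR on the minus strand of chromosome 3, at chr3:196050979-196051007, chr3:196050575-196050603, chr3:196050510-196050538 and chr3:196050463-196050491. Their letters below give the order along the transcript and are not established names of elements. A hairpin whose loop differs from CAGTG would be missed by this search.
TFRC loop A: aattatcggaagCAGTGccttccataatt
TFRC loop B: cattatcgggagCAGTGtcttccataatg
TFRC loop C: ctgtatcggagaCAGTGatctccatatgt
TFRC loop D: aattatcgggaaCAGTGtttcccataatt
SLC11A2 holds 1 loop with 1 mispaired base in the 3′ UTR of some of its transcripts, at chr12:50988269-50988297 on the minus strand.
SLC11A2: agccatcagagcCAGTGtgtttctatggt
Of 19519 protein-coding genes searched, 1.49% held a loop with no mispaired base and 11.2% held one with at most 1. ACO1 and IREB2 also had a match of that looser kind in the 3′ UTR. A match describes letters and shows no binding.

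Over the whole course, all 9 tested members changed (edgeR quasi-likelihood F-test, Benjamini-Hochberg adjusted p under 0.05 over all 17559 genes), beside 82.9% of all genes tested. At 0.5 h 0 members passed in edgeR and 0 in DESeq2, where 0.171% of all genes passed in edgeR, 0.165% higher and 0.00570% lower. An unadjusted edgeR p under 0.05 at 0.5 h was found for 2 of the 9 members (TFR2 and IREB2) and for 22.3% of all genes. TFR2 and SLC40A1 had the largest falls, SLC11A2 and SLC25A37 were lowest at 6 h, FTL was highest at 24 h, and FTH1 was highest at 6 h. At 1.5 h 3 members were called, all lower, where 17.1% of all genes were called, 9.05% higher and 8.05% lower. At 3 h 7 were called, 3 higher and 4 lower (background 42.0%, with 21.5% higher and 20.5% lower), and at 6 h 6, 2 higher and 4 lower (background 57.2%, with 27.8% and 29.4%). At 24 h 8 were called, 2 higher and 6 lower (background 58.3%, with 31.7% and 26.6%), at 48 h 7, 2 higher and 5 lower (background 54.3%, with 30.2% and 24.1%), and at 72 h 6, 2 higher and 4 lower (background 58.6%, with 31.7% and 26.9%). From 6 to 24 h 7 were called, 4 higher and 3 lower (background 56.6%, with 30.8% and 25.8%), and from 24 to 72 h 3, 2 higher and 1 lower (background 26.3%, with 13.9% and 12.4%). With at most 9 members, these shares are read against backgrounds in which more than 1 in 4 genes changed from 3 h on. The median log2 fold change of the members was -0.60 at 24 h and -0.36 at 72 h, where the median of all genes tested was -0.01 and -0.03.

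The early counts rest on single libraries. The share of all genes called in each refit below is not given here. Its counts of members therefore have no background and show only how the calls depend on the setting. Without replicate 1 of 0 h, log2 fold changes at 0.5 h went from -0.31 to -0.45 for TFR2 and from -0.19 to -0.43 for FTH1. Those of FTL went from -0.34 to -0.60 and those of IREB2 from 0.31 to 0.51. Without replicate 1 of 1.5 h, 0 passed at that time, and without replicate 1 of 3 h, 4 passed at 3 h. The 3 members called higher at 3 h (TFRC, FTH1 and FTL) became 0 without replicate 1 of 3 h, with libraries scaled to total counts, when only the groups compared were fitted and at an adjusted p under 0.01, and 1 without replicate 1 of 0 h. From 24 to 72 h, 1 passed without replicate 1 of 24 h and 1 without replicate 2 of 24 h. The 2 libraries of 0 h differed more for several members than libraries of other times did, which the plot of levels in each library shows. Replicate 2 of 0 h also had the smallest gap between transcript length and effective length, 199 nt. The gap was 210 to 221 nt in the replicate 1 libraries and 229 to 248 nt in the other replicate 2 libraries. The part of this gap in the results was not tested. Here CPM is the read count scaled to the TMM-adjusted size of the library, and TPM is abundance per transcript length relative to all transcripts.

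**Figure D1:**
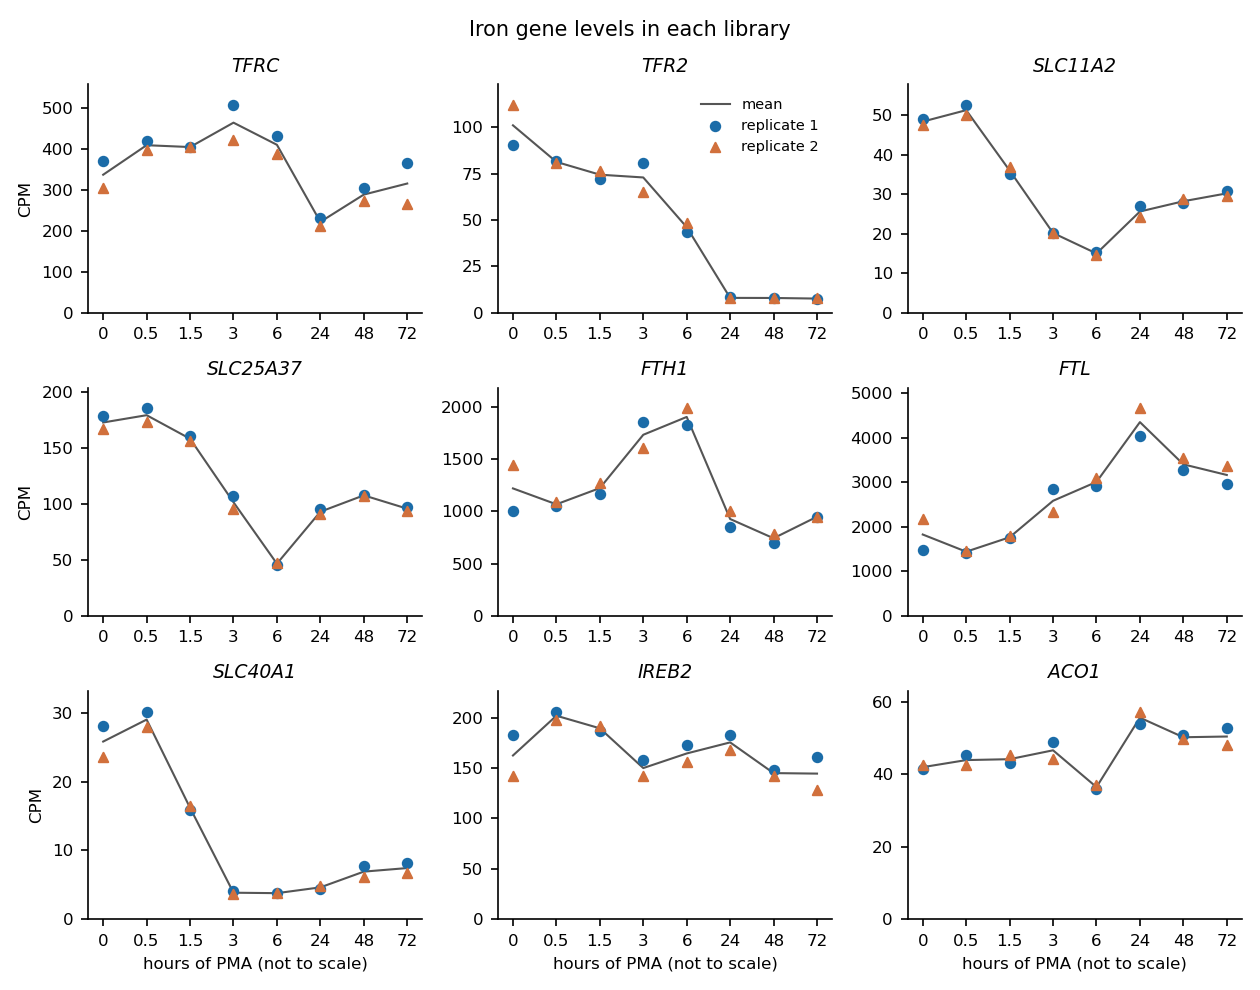
Level of 9 iron genes in CPM (vertical axis, from 0) at each hour of PMA (horizontal axis, equally spaced). Circles are replicate 1, triangles replicate 2 and the line joins their means. TFR2 falls from 101 CPM at 0 h to 7.59 CPM at 72 h, SLC25A37 and SLC11A2 are lowest at 6 h, and FTL is highest at 24 h.

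TFR2, the second transferrin receptor, which partners the erythropoietin receptor in erythroid cells, showed the largest fall among the members. Its level was 90.3 and 112 CPM at 0 h, 43.7 and 48.6 CPM at 6 h, 8.30 and 7.64 CPM at 24 h, 7.86 and 7.98 CPM at 48 h, then 7.16 and 8.03 CPM at 72 h. Every library from 24 h on lay under every earlier library, and the 3 late times did not separate from each other. The fall was 2.19-fold at 6 h (log2 fold change -1.13 ± 0.12 SE, edgeR adjusted p = 2.21e-06), 12.7-fold at 24 h (-3.67 ± 0.14, adjusted p = 5.16e-11) and 13.3-fold at 72 h (-3.73 ± 0.14, adjusted p = 3.8e-11). From 6 to 24 h alone it was 5.81-fold (-2.54 ± 0.13, adjusted p = 4.98e-09). From 24 to 72 h the value was -0.07 ± 0.14 (edgeR adjusted p = 0.774). Smaller falls at 1.5 h (-0.44, adjusted p = 0.0232) and at 3 h (-0.47, adjusted p = 0.0058) were less firm. The call at 1.5 h ended without either 1.5 h library (-0.40 without replicate 1, -0.48 without replicate 2), without replicate 2 of 0 h (-0.28), and once each library's trend with GC content was removed (-0.08). The call at 3 h ended without replicate 2 of 0 h (-0.31) or of 3 h (-0.32).

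The make-up of the TFR2 reads moved as well. TFR2-213, a transcript annotated as a target of nonsense-mediated decay, took 11.0% and 5.89% of the gene's estimated reads at 0 h, then 21.4% and 22.2% at 6 h. It took 44.0% and 36.6% at 24 h, then 38.9% and 36.6% at 72 h, so its late shares did not overlap the early ones. These late shares rest on 257 to 368 reads of the gene per library. Its 2 main coding transcripts could not be told apart in these estimates, with TFR2-205 at 13.1% in 1 library of 24 h and 46.0% in the other.

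TFRC, the main transferrin receptor, moved far less than TFR2. It had 370 and 303 CPM at 0 h, 419 and 398 at 0.5 h, 403 and 405 at 1.5 h, 506 and 421 at 3 h, then 431 and 388 at 6 h. It then had 231 and 212 CPM at 24 h, 303 and 273 at 48 h, then 364 and 266 at 72 h. The 24 h libraries were the lowest of all, and the 72 h libraries overlapped the 0 h range. By edgeR, TFRC fell by 1.85-fold from 6 to 24 h (log2 fold change -0.89 ± 0.15, adjusted p = 0.000178) and was 1.52-fold under 0 h at 24 h (-0.60 ± 0.15, adjusted p = 0.00302). It rose by 1.42-fold from 24 to 72 h (0.51 ± 0.15, edgeR adjusted p = 0.0202), a call that ended without replicate 1 of 72 h (0.26), replicate 1 of 24 h (0.57) or replicate 2 of 24 h (0.50). The rise at 3 h (0.46 ± 0.15, edgeR adjusted p = 0.0203) ended without replicate 1 of 3 h (0.32) or replicate 2 of 0 h (0.32) and with libraries scaled to total counts (0.17), and at 6 h the value of 0.28 became a call without replicate 1 of 0 h (0.44).

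The early course of TFRC depends on the scale. Of its 15 transcripts, 12 are shorter than 1000 nt, and these took 61.9% and 64.6% of the gene's TPM at 0 h, but 32.1% and 35.8% at 3 h, while they held at most 12.4% of its reads in any library. Summed TPM of the gene was 276 and 219 at 0 h, then 177 and 164 at 3 h, so it was lower at 3 h in both libraries, opposite to CPM. The main transcript, with most of the reads and 5012 nt, which carries the 4 loops printed above, had 99.8 and 71.3 TPM at 0 h, then 117 and 101 TPM at 3 h. At 24 h it had 62.2 and 50.1 TPM, under both 0 h libraries. In a fit on counts scaled from TPM by length, TFRC was -0.24 at 3 h (edgeR adjusted p = 0.154), -0.32 at 6 h (adjusted p = 0.0441) and -0.60 at 72 h (adjusted p = 0.00104), while the lower level at 24 h, against 0 h and against 6 h, was called on both scales. Transcripts with the loops held 87.6 to 96.7% of the gene's reads.

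SLC11A2 (DMT1), the endosomal iron transporter, dipped and partly returned. It had 49.2 and 47.7 CPM at 0 h, 52.6 and 50.1 at 0.5 h, 35.2 and 36.9 at 1.5 h, 20.3 and 20.1 at 3 h, then 15.5 and 14.5 CPM at 6 h. The later levels were 27.1 and 24.2 CPM at 24 h, 27.7 and 28.8 at 48 h, then 30.8 and 29.7 at 72 h. Both 6 h libraries were the lowest of the course, and no library from 1.5 h on reached the 0 h range. SLC11A2 fell by 3.24-fold at 6 h (log2 fold change -1.70 ± 0.09, edgeR adjusted p = 2.2e-09), rose by 1.71-fold from 6 to 24 h (0.78 ± 0.09, adjusted p = 8e-06) and was still 1.60-fold under 0 h at 72 h (-0.68 ± 0.09, adjusted p = 1.32e-05). At 1.5 h it was at -0.43 ± 0.09 (edgeR adjusted p = 0.00523), a call that ended without replicate 1 of 1.5 h (-0.40).

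The transcripts of SLC11A2 divide by the hairpin, as do those of ACO1 and IREB2 with a match of the same looser kind. Its 8 transcripts with the loop had 19.3 and 17.0 CPM at 0 h, 4.65 and 5.44 CPM at 3 h, 5.14 and 4.85 CPM at 6 h, then 13.8 and 13.0 CPM at 72 h. Its 24 transcripts without it had 29.9 and 30.7 CPM at 0 h, 15.6 and 14.7 at 3 h, 10.3 and 9.64 at 6 h, 14.6 and 12.7 at 24 h, then 17.0 and 16.7 at 72 h. The loop form was lowest at 3 and 6 h, and had returned to 12.4 and 11.5 CPM by 24 h. The form without the loop was lowest at 6 h, and its 24 h libraries were still under those of 3 h. Over all transcripts, coding or not, the share of reads on the loop form was 39.3% and 35.6% at 0 h, 22.9% and 27.1% at 3 h, 45.9% and 47.4% at 24 h, then 44.9% and 43.8% at 72 h, so the 3 h libraries lay lowest and the 24 h libraries highest. Over protein-coding transcripts alone this order did not hold. There the share was 19.8% and 37.5% at 0 h, 25.0% and 21.0% at 3 h, 26.8% and 6.32% at 6 h, then 41.3% and 46.7% at 24 h. These shares are the authors' estimates of how reads split between transcripts that overlap, have no count of their own, and were not tested.

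**Figure D2:**
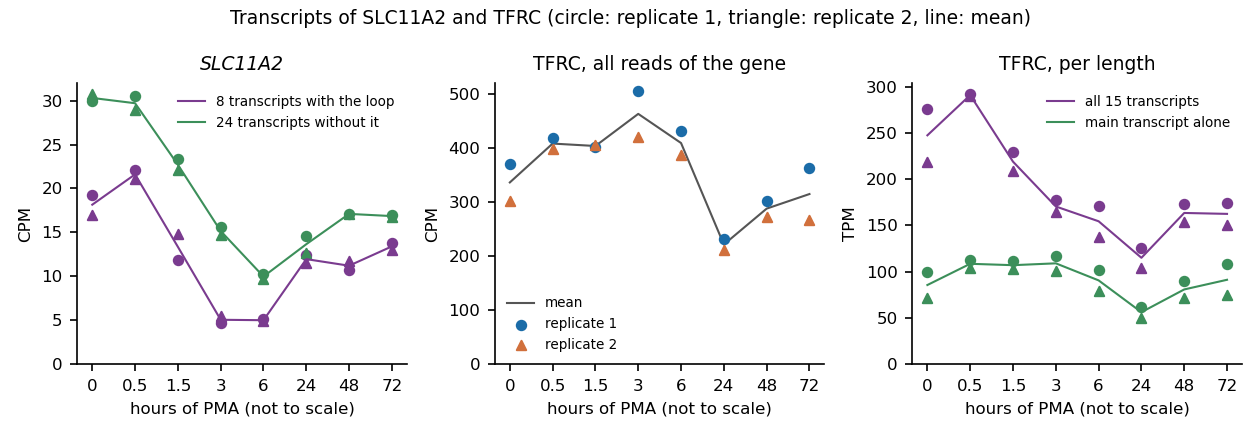
Left, CPM of the SLC11A2 transcripts with and without the hairpin loop. Middle, CPM of TFRC. Right, TPM of TFRC summed over its transcripts and of its main transcript alone. The horizontal axis is hours of PMA, equally spaced, and each point is a library. CPM of TFRC rises to 463 at 3 h on average, while its summed TPM goes from 247 at 0 h to 170 at 3 h.

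SLC25A37 (mitoferrin-1) carries iron across the inner mitochondrial membrane and is most active in erythroid cells. It lies on chromosome 8. Its level was 178 and 167 CPM at 0 h, 185 and 173 at 0.5 h, 160 and 156 at 1.5 h, 107 and 95.7 at 3 h, then 45.8 and 47.3 CPM at 6 h. It was then 95.1 and 90.7 CPM at 24 h, 108 and 107 at 48 h, then 97.4 and 93.8 at 72 h. The 2 libraries of each time were close, the 6 h libraries were lowest, and the late libraries sat between the 6 h and 0 h ranges. By edgeR it fell by 1.71-fold at 3 h (log2 fold change -0.77 ± 0.08, adjusted p = 5e-06) and 3.71-fold at 6 h (-1.89 ± 0.09, adjusted p = 3.95e-10). It doubled again from 6 to 24 h (2.00-fold, 1.00 ± 0.08, edgeR adjusted p = 3.76e-07) and was 1.81-fold under 0 h at 72 h (-0.85 ± 0.08, adjusted p = 8.11e-07). The retained-intron transcript SLC25A37-204 held 34.7% and 30.8% of its reads at 0 h, 8.99% and 16.1% at 6 h, then 21.6% and 26.8% at 72 h.

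Among the storage genes, FTL, the light ferritin subunit, rose and stayed high. FTL had 1467 and 2184 CPM at 0 h, 1416 and 1464 at 0.5 h, 1740 and 1787 at 1.5 h, 2840 and 2324 at 3 h, then 2912 and 3099 at 6 h. It peaked at 4041 and 4654 CPM at 24 h and had 3266 and 3534 CPM at 48 h, then 2966 and 3357 CPM at 72 h. All libraries from 3 h on lay above both 0 h libraries, and the 24 h libraries were the highest. By edgeR the rise was 1.65-fold at 6 h (log2 fold change 0.72 ± 0.16, adjusted p = 0.00157), 2.38-fold at 24 h (1.25 ± 0.16, adjusted p = 1.73e-05), 1.86-fold at 48 h (0.90 ± 0.16, adjusted p = 0.000326) and 1.73-fold at 72 h (0.79 ± 0.16, adjusted p = 0.000783). The steps within the course were weaker: 0.53 from 6 to 24 h (edgeR adjusted p = 0.0125), which ended without replicate 1 of 6 h (0.47) or replicate 2 of 24 h (0.38), and -0.46 from 24 to 72 h (adjusted p = 0.0499), which ended without any 1 of its 4 libraries (-0.56 to -0.31). The rise at 3 h (0.50, edgeR adjusted p = 0.0225) ended without replicate 1 of 0 h (0.24), without replicate 1 of 3 h (0.35) and with libraries scaled to total counts (0.22).

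FTH1, the heavy subunit, which oxidises iron as it enters the shell, followed FTL up to 6 h and then parted from it. FTH1 had 998 and 1438 CPM at 0 h, 1046 and 1086 at 0.5 h, 1169 and 1273 at 1.5 h, 1855 and 1606 at 3 h, then 1820 and 1982 CPM at 6 h. It had 853 and 998 CPM at 24 h, 699 and 784 at 48 h, then 946 and 949 at 72 h. The 3 and 6 h libraries were above both 0 h libraries, and the 48 h libraries were the lowest of the course. FTH1 rose by 1.56-fold at 6 h (log2 fold change 0.64 ± 0.15, edgeR adjusted p = 0.00209), fell by 2.05-fold from 6 to 24 h (-1.04 ± 0.15, adjusted p = 5.68e-05) and was 1.64-fold under 0 h at 48 h (-0.72 ± 0.15, adjusted p = 0.00108). At 72 h its value was -0.36 ± 0.15 (edgeR adjusted p = 0.0512), which passed without replicate 1 of 0 h (-0.60). The call at 24 h (-0.40, edgeR adjusted p = 0.0354) ended without replicate 2 of 0 h (-0.11) or replicate 1 of 24 h (-0.28), that at 3 h (0.51, adjusted p = 0.0143) without replicate 1 of 0 h (0.27) or of 3 h (0.40) and with libraries scaled to total counts (0.23), and that at 6 h with libraries scaled to total counts (0.28, adjusted p = 0.0694).

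The 2 subunits are compared per length, as TPM, within each library. The ratio of FTL to FTH1 was 1.41 and 1.36 at 0 h, 1.36 and 1.38 at 0.5 h, 1.51 and 1.43 at 1.5 h, 1.50 and 1.46 at 3 h, then 1.60 and 1.56 at 6 h. It was 4.70 and 4.45 at 24 h, 4.57 and 4.24 at 48 h, then 3.12 and 3.15 at 72 h. Every library from 24 h on was above every earlier one, and the 72 h libraries were under those of 24 and 48 h. The ratio was not tested. Summed over both subunits, TPM was 5859 and 7918 at 0 h, 10823 and 11376 at 24 h, then 9078 and 10440 at 72 h. Processed copies of both genes lie elsewhere in the genome: 25 listed pseudogenes of FTH1 took 0.186 to 0.326% and 16 of FTL 0.0379 to 0.186% of the reads, and how reads divide between copies is the authors' estimate. BEST1, which overlaps FTH1 on the other strand, had 9248 reads in all against 644709 for FTH1, and whether the counting used strand is not given in the sources used here.

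**Figure D3:**
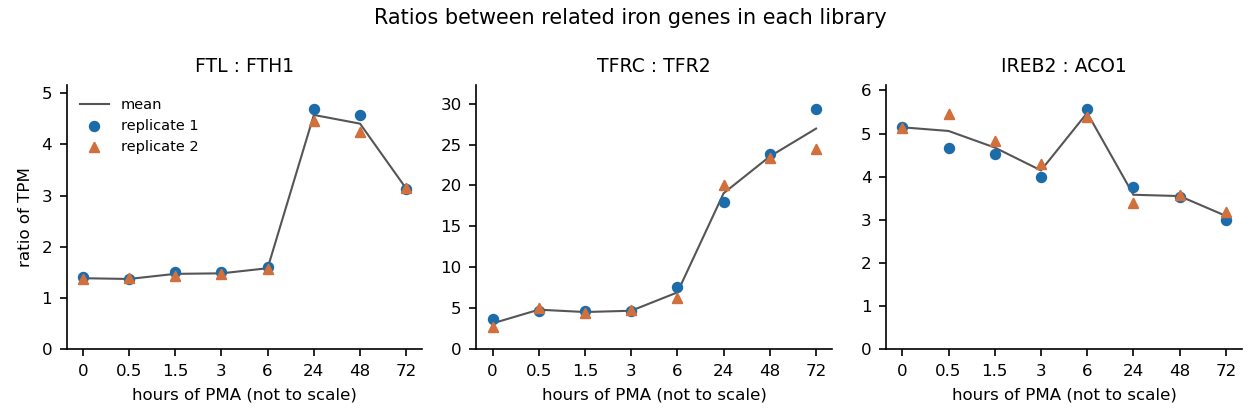
Ratio of TPM (vertical axis, from 0) between related iron genes at each hour of PMA (equally spaced). Circles and triangles are replicates 1 and 2 and the line joins their means. The ratio of FTL to FTH1 is 1.58 on average at 6 h and 4.58 at 24 h, and that of TFRC to TFR2 goes from 3.15 at 0 h to 26.9 at 72 h. TPM of TFRC is summed over its transcripts, and those under 1000 nt took 61.9% and 64.6% of it at 0 h.

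The plot of ratios also holds the 2 receptors. TFRC exceeded TFR2 3.62-fold and 2.67-fold in TPM at 0 h, 7.57-fold and 6.29-fold at 6 h, 18.0-fold and 20.1-fold at 24 h, and 29.4-fold and 24.5-fold at 72 h. The late ratios did not overlap the early ones. TPM of TFRC is summed over its transcripts here, and those under 1000 nt took 61.9% and 64.6% of it at 0 h, then 36.2% and 47.5% at 72 h. The main transcript of TFRC alone had 99.8 and 71.3 TPM at 0 h, which overlaps the 76.2 and 81.8 TPM of TFR2. At 72 h it had 108 and 74.4 TPM, beside 5.91 and 6.17 TPM for TFR2.

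SLC40A1 (ferroportin), the iron exporter, had the largest fall of the members at 1.5, 3 and 6 h. It had 28.1 and 23.6 CPM at 0 h, 30.2 and 27.9 at 0.5 h, 15.9 and 16.5 at 1.5 h, 4.06 and 3.62 at 3 h, then 3.76 and 3.79 CPM at 6 h. It then had 4.45 and 4.79 CPM at 24 h, 7.68 and 6.14 at 48 h, then 8.14 and 6.72 at 72 h. The 3 and 6 h libraries were lowest, on 88 to 148 reads each, and all libraries of 48 and 72 h were above those of 24 h and far under those of 0 h. By edgeR, SLC40A1 fell by 6.71-fold at 3 h (log2 fold change -2.75 ± 0.15, adjusted p = 9.9e-09) and 6.84-fold at 6 h (-2.77 ± 0.16, adjusted p = 3.73e-09). It was 5.57-fold under 0 h at 24 h (-2.48 ± 0.15, edgeR adjusted p = 8.41e-09) and 3.47-fold under it at 72 h (-1.80 ± 0.15, adjusted p = 1.44e-07), and it rose by 1.60-fold from 24 to 72 h (0.68 ± 0.15, adjusted p = 0.00446). At 1.5 h it was at -0.67 ± 0.14 (edgeR adjusted p = 0.00628), a call that ended without replicate 1 of 1.5 h (-0.65). Its main coding transcript, which carries the loop, held 78.3 to 96.5% of the gene's reads.

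The 2 iron regulatory proteins changed little in RNA. IREB2, which is controlled mainly by breakdown of its protein, had 183 and 142 CPM at 0 h, 206 and 198 at 0.5 h, 173 and 156 at 6 h, 183 and 168 at 24 h, then 161 and 128 at 72 h. The 0 h range covered most of the later libraries. No single comparison of IREB2 passed in the fit of all libraries, with log2 fold changes against 0 h of 0.31 ± 0.13 at 0.5 h (edgeR adjusted p = 0.191), 0.01 ± 0.13 at 6 h (adjusted p = 0.944), 0.11 ± 0.13 at 24 h (adjusted p = 0.485) and -0.17 ± 0.13 at 72 h (adjusted p = 0.262), although the test over the whole course did (adjusted p = 0.019). Without replicate 2 of 0 h the value at 72 h was -0.34 and passed, and the values at 6 and 24 h were -0.16 and -0.06. The value at 72 h also passed with libraries scaled to total counts (-0.34, edgeR adjusted p = 0.0335), on counts scaled from TPM (-0.28, adjusted p = 0.0249) and with the GC trend of each library removed (-0.31, adjusted p = 0.00412), but was 0.02 without replicate 1 of 0 h. At 6 h IREB2 was lower, and called, with libraries scaled to total counts (-0.35, edgeR adjusted p = 0.0269) and with the replicate block and the GC trend removed together (-0.17, adjusted p = 0.027).

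ACO1, the cytosolic aconitase that becomes an iron regulatory protein when it loses its iron-sulphur cluster, rose slightly. It had 41.3 and 42.5 CPM at 0 h, 35.8 and 37.0 at 6 h, 53.9 and 57.2 at 24 h, 50.7 and 49.6 at 48 h, then 52.7 and 48.0 at 72 h. All late libraries were above both 0 h libraries and both 6 h libraries were below them. At 6 h the log2 fold change was -0.20 and not called, but it was -0.57 with libraries scaled to total counts (edgeR adjusted p = 7.64e-06) and -0.24 with the GC trend of each library removed (adjusted p = 0.0122), both called. By edgeR the log2 fold change was 0.41 ± 0.09 at 24 h (adjusted p = 0.00107) and the rise was 1.53-fold from 6 to 24 h (0.61 ± 0.09, adjusted p = 4.59e-05). The rises at 48 h (0.26, edgeR adjusted p = 0.0197) and 72 h (0.27, adjusted p = 0.0164) ended without replicate 1 of 0 h (0.24 and 0.25), without replicate 1 of the later time (0.25 and 0.20) and, at 48 h, without replicate 2 of 48 h (0.28). With libraries scaled to total counts, ACO1 was 0.16 at 24 h (adjusted p = 0.0551), 0.10 at 48 h and 0.11 at 72 h, none of them called. Its longest transcript, which carries the looser loop match, held 35.3% and 39.1% of the reads at 0 h, then 19.7% and 25.1% at 72 h. The TPM ratio of IREB2 to ACO1 was 5.15 and 5.14 at 0 h, then 2.99 and 3.19 at 72 h.

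HMOX1, the inducible haem oxygenase, which frees iron from haem, was close to silent. It had 19 reads over the 16 libraries, at most 5 in any of them, and 0 in 9 libraries. Its 7 libraries with reads were all between 0.5 and 6 h, with 3 and 5 reads at 3 h and 5 and 2 reads at 6 h, and all libraries of 0, 24, 48 and 72 h had 0. A count of 0 allows up to 3 reads, for counting error only. In the libraries with 0 reads this is 0.0574 to 0.107 CPM, here without the TMM adjustment. The highest level seen was 0.213 CPM, with that adjustment. The gene was not tested and no fold is given. HMOX2, the constitutive haem oxygenase, had 26.7 and 28.0 CPM at 0 h, then 30.8 and 31.0 CPM at 72 h.

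**Figure D4:**
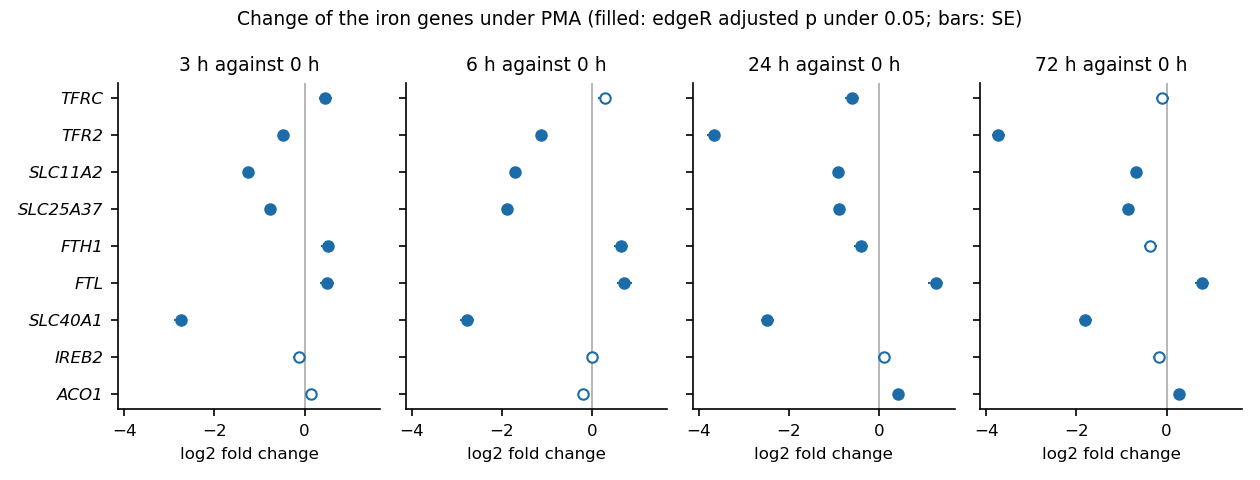
Log2 fold change against 0 h (horizontal axis) of the 9 tested iron genes at 3, 6, 24 and 72 h of PMA. Bars are SE, often hidden by the point, and filled points have an edgeR adjusted p under 0.05. TFR2 lies furthest left at 24 h (-3.67) and 72 h (-3.73), SLC40A1 furthest left at 3 h (-2.75), and FTL furthest right at 24 h (1.25).

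The order of the members by level, per length, moved with these changes. At 0 h it was FTL (3432 and 4562 TPM), FTH1 (2427 and 3356), TFRC (276 and 219), then SLC25A37 (90.6 and 78.8), TFR2 (76.2 and 81.8) and IREB2 (78.1 and 71.4), whose ranges overlapped in turn, followed by SLC11A2 (53.9 and 48.4), SLC40A1 (23.3 and 25.2), ACO1 (15.2 and 13.9) and HMOX1 at 0. At 72 h FTL (6872 and 7926 TPM), FTH1 (2205 and 2514) and TFRC (174 and 151) still led. IREB2 (63.1 and 59.6), SLC25A37 (45.1 and 48.1), SLC11A2 (28.6 and 29.9), ACO1 (21.1 and 18.7), TFR2 (5.91 and 6.17) and SLC40A1 (5.25 and 4.18) followed with no overlap between neighbours, and HMOX1 was again at 0. TPM of TFRC is summed over its transcripts here. Its main transcript alone had 99.8 and 71.3 TPM at 0 h, which overlaps the range of SLC25A37.

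The genes whose course was most like that of a member were sought by the correlation of 8 time-point means of log2 CPM over 11269 genes, a description over points that share libraries. The nearest to TFR2 was BLVRB, a biliverdin reductase of the iron pathway lists below (r = 0.998), followed by FAM178B (r = 0.997) and CHCHD6 (r = 0.996). BLVRB had 188 CPM at 0 h, 92.5 at 6 h and 24.9 at 72 h on average. SLC25A37 was nearest to AGMO (0.996), SPIN4 (0.994) and RAB3IL1 (0.990), SLC11A2 to COA5 (0.992), NUDT16 (0.988) and BTNL9 (0.987), and SLC40A1 to SOCS2 (0.995), KCNE3 (0.988) and CHAC1 (0.987). FTL was nearest to KDM5C (0.998), with FADD also close (0.995), FTH1 to SUN1 (0.970), MICALL1 (0.965) and EID3 (0.963), and TFRC to MAPK10 (0.981), ENSG00000260103 (0.981) and TPH2 (0.979). IREB2 was nearest to HNRNPR (0.967), DICER1 (0.964) and CDC42SE2 (0.963), and ACO1 to ATXN10 (0.988), SDHC (0.985) and SEC23B (0.976). Among the members themselves, SLC25A37, SLC11A2 and SLC40A1 ran together (r = 0.86 to 0.94 between pairs), while FTL ran opposite to SLC40A1 (r = -0.85) and TFR2 (r = -0.84), and FTL and FTH1 had r = -0.23.

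Around the members, 74 further genes of iron handling were followed in 7 lists, and 69 of them could be tested. At 24 h 48 were called (69.6%), 26 higher and 22 lower, and at 72 h 48 (69.6%), 22 higher and 26 lower, beside the backgrounds of 58.3% and 58.6% given above. Their median log2 fold change was 0.01 at 24 h and 0.00 at 72 h.

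Uptake and endosomal handling had 13 tested genes of 15 listed, with 5 called at 6 h (38.5%, 1 higher), 10 at 24 h (76.9%, 4 higher) and 8 at 72 h (61.5%, 4 higher). The shares over all genes at these times were 57.2%, 58.3% and 58.6%, so the list was under the background at 6 h and near it at 72 h. SNX3, a sorting nexin that returns TFRC from endosomes and the most abundant of the list, had 92.6 and 75.8 CPM at 0 h, then 127 and 123 CPM at 72 h (log2 fold change 0.57 ± 0.13, edgeR adjusted p = 0.00198). MELTF, melanotransferrin, a surface protein that binds iron, had 12.5 and 15.7 CPM at 0 h, then 5.24 and 5.84 at 72 h (-1.35 ± 0.14, edgeR adjusted p = 1.29e-06), and STEAP1, of the family of metal reductases, had 0.522 and 0.386 CPM and 1.59 and 1.37 CPM (1.70 ± 0.38, adjusted p = 0.0016).

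Of 5 genes of ferritin loading and release, 4 were tested and all 4 were called at 72 h, 2 higher and 2 lower, beside 58.6% of all genes (31.7% higher and 26.9% lower). NCOA4, the receptor that takes ferritin to the lysosome, had 223 and 190 CPM at 0 h, then 513 and 377 CPM at 72 h, a rise of 1.11 ± 0.13 on the log2 scale (edgeR adjusted p = 5.2e-06). PCBP2, one of the chaperones that bring iron to ferritin, had 698 and 838 CPM at 0 h, 998 and 995 at 6 h, then 503 and 471 at 72 h, and fell by 0.66 at 72 h (edgeR adjusted p = 0.000112).

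The mitochondrial list, with 15 genes all tested, had 9 lower and 0 higher at 6 h (60.0% called, background 57.2%) and 10 lower and 3 higher at 72 h (86.7% called, background 58.6%). Of all genes, 29.4% were lower at 6 h and 26.9% at 72 h. The list's median was -0.39 at 6 h and -0.48 at 72 h. HSPA9, the chaperone of cluster transfer, had 1039 and 950 CPM at 0 h, then 610 and 522 at 72 h (-0.81 ± 0.10, edgeR adjusted p = 1.07e-05). FDXR, ferredoxin reductase, had 55.6 and 77.6 CPM at 0 h, 16.2 and 15.5 at 6 h, then 32.3 and 32.0 at 72 h (-1.05 ± 0.15 at 72 h, edgeR adjusted p = 4.93e-05). GLRX5, the glutaredoxin that passes clusters on, went the other way, from 36.9 and 36.7 to 106 and 101 CPM (1.49 ± 0.11, edgeR adjusted p = 7.62e-08).

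Of 8 export partners and hepcidin-axis genes, 6 were tested, with 3 called at 24 h (1 higher) and 2 at 72 h (1 higher), beside 58.3% and 58.6% of all genes. BMP6, the ligand that in the liver induces hepcidin, had 0.737 and 0.644 CPM at 0 h, 11.6 and 14.1 at 6 h, then 24.0 and 27.2 CPM at 72 h (5.20 ± 0.23, edgeR adjusted p = 3.03e-10). HEPH, hephaestin, a ferroxidase that works with ferroportin, had 154 and 166 CPM at 0 h, 257 and 252 at 6 h, then 129 and 110 at 72 h (-0.42 ± 0.09 at 72 h, edgeR adjusted p = 0.0014).

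The list of genes that control the iron regulatory proteins or iron gene transcription had 15 tested genes, with 9 higher and 2 lower at 6 h, 9 higher and 3 lower at 24 h, and 8 higher and 4 lower at 72 h. These are 73.3%, 80.0% and 80.0% of the list, beside 57.2%, 58.3% and 58.6% of all genes. ZFP36L1, an RNA-binding protein that promotes decay of AU-rich messages, had 47.2 and 52.2 CPM at 0 h, 807 and 974 at 6 h, then 457 and 540 at 72 h (3.33 ± 0.15 at 72 h, edgeR adjusted p = 3.53e-10). HIF1A, the hypoxia factor whose targets include TFRC, had 68.3 and 54.4 CPM at 0 h, then 297 and 243 at 72 h (2.14 ± 0.12, edgeR adjusted p = 2.13e-09).

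Haem breakdown and transport had 8 tested genes, with 1 higher and 4 lower at 6 h and 2 higher and 3 lower at 72 h, or 62.5% called at both times, close to the 57.2% and 58.6% of all genes. BLVRB had 158 and 217 CPM at 0 h, then 23.2 and 26.7 at 72 h (-2.91 ± 0.15, edgeR adjusted p = 1.15e-09). FLVCR2, a transporter of the haem exporter's family, was near the floor at 0 h (0.0921 and 0 CPM) and had 0.864 and 0.906 CPM at 72 h (edgeR adjusted p = 0.000359).

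All 8 enzymes and transporters taken as NFE2L2 targets were higher at 6 h (median 1.43, beside 27.8% of all genes called higher). HMOX1, also a target of NFE2L2, had 5 and 2 reads at 6 h and 0 in both libraries of 24 h, and a link was not tested. At 24 h 6 of the 8 enzymes and transporters were higher and 2 lower, beside 58.3% of all genes called (31.7% higher and 26.6% lower). At 72 h 2 were higher and 2 lower, or 4 of 8 called, beside 58.6% of all genes (31.7% higher and 26.9% lower). The list was thus not above the background at 72 h. TXNRD1, thioredoxin reductase, had 247 and 232 CPM at 0 h, 1319 and 1263 at 6 h (2.43 ± 0.12, edgeR adjusted p = 1.34e-09) and 280 and 211 at 72 h. SLC7A11, the cystine importer, had 343 and 230 CPM at 0 h, 611 and 536 at 6 h, then 17.1 and 13.9 at 72 h (-4.20 ± 0.20 at 72 h, edgeR adjusted p = 4.91e-10), and GCLM, of glutathione synthesis, had 86.9 and 80.4 CPM at 0 h, then 273 and 189 at 72 h (1.46 ± 0.15, adjusted p = 1.89e-06).

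**Figure D5:**
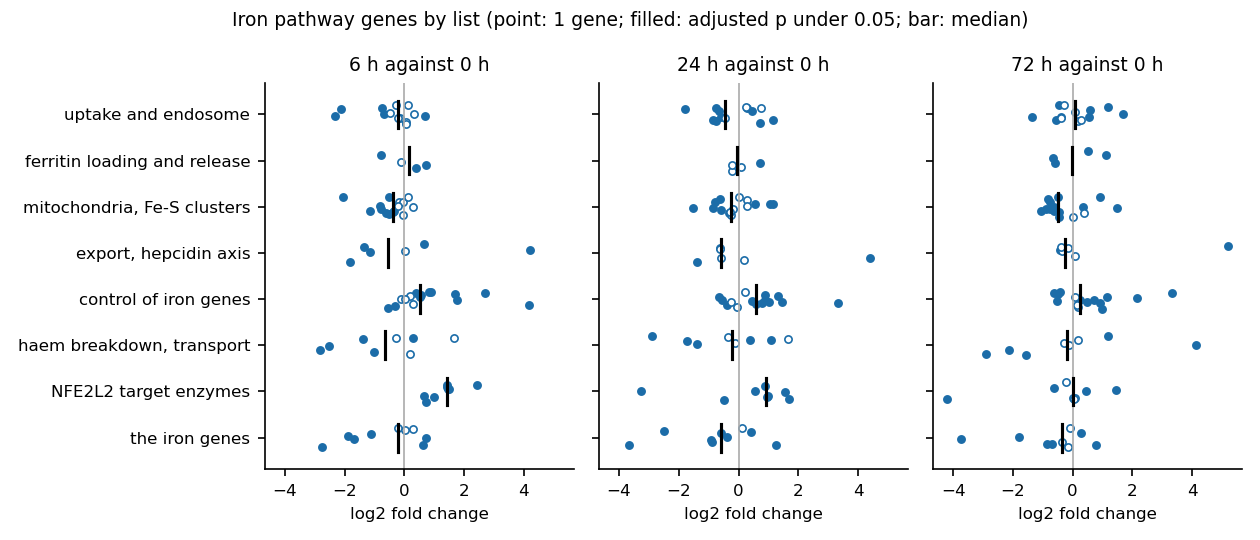
Log2 fold change against 0 h (horizontal axis) of each tested gene of the 7 iron pathway lists and of the members, at 6, 24 and 72 h of PMA. Each point is a gene, filled where its edgeR adjusted p is under 0.05, and the bar is the list's median. At 6 h the NFE2L2 targets have a median of 1.43 and the mitochondrial list one of -0.39.

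Libraries held 27285773 to 54056289 estimated reads. All 12 erythroid markers of K562 were detected in every time point, with a summed level of 1743 to 2127 CPM at 0 h, 1449 to 1674 CPM at 6 h, 1014 to 1077 CPM at 24 h, 1483 to 1650 CPM at 48 h and 1267 to 1643 CPM at 72 h. The summed level of 12 megakaryocyte markers went from 70.0 to 105 CPM at 0 h to 5459 to 6210 CPM at 72 h, most of it THBS1 and ITGB3, while GP9 and PF4 had at most 3 reads in both libraries of 72 h. Among markers of other cells, 9 macrophage genes had 64.4 to 83.4 CPM in sum at 0 h and 170 to 206 CPM at 72 h, most of it CD68, with C1QA and C1QB at 0. The 6 fibroblast and epithelial genes had 55.6 to 61.7 CPM in sum at 0 h and 253 to 270 CPM at 72 h, with KRT5 at or under 3 reads. Most of the sum was EPCAM at 0 h (mean 44.9 CPM) and COL1A1 at 72 h (mean 207 CPM). From 0 to 72 h COL1A1 rose from a mean of 3.46 CPM, while EPCAM fell to 17.9 CPM. The 6 T and B cell genes had 8.75 to 11.2 CPM at 0 h and 18.5 to 18.8 CPM at 72 h, with CD2 and MS4A1 at or under 3 reads. The part of these shifts in the results above was not tested, and in RNA from whole cultures fewer cells of a type and less RNA per cell cannot be told apart.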

How the data were processed

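Total RNA of K562 cells, depleted of ribosomal RNA, was sequenced at 8 times of PMA treatment. Per the file headers, each deposited table gives, for 1 library, the estimated count of reads per transcript and TPM for 177456 transcripts. Trim Galore 0.4.3 and Salmon are named in the submitters' processing notes, as are the builds hg19 and hg38 without a role; the annotation release behind the tables is not given in the sources used here. Transcripts were matched by identifier without version to GENCODE 29 (GRCh38), and 94.1% matched, while the 10429 others, with 3.01 to 3.75% of a library's reads, were left out. Some deposited transcript lengths differ from those of GENCODE 29. Estimated counts were summed per gene and rounded. The test was that of edgeR 4.0.16 under R 4.3.3 (TMM, filterByExpr, quasi-likelihood F-test on all 16 libraries, prior count 0.125, Benjamini-Hochberg adjustment over 17559 genes, threshold 0.05), checked on simulated counts. The alternatives included DESeq2 1.42.0, other scalings and filters, counts scaled from TPM, a GC correction, a replicate block and leaving out each library. The fit had 8 residual degrees of freedom and a common coefficient of variation of 0.123. Values are per library or mean with n = 2, and floors hold for counting error alone, because PCR copies are not separate molecules. The members were given by name, and the lists and tests were chosen with earlier results of these data known. All members were named; from each list, the most abundant gene and the 2 with the largest change at 72 h among those called at 24 or 72 h; transcripts with at least 10% of a gene's reads; and the 3 genes of at least 5 CPM with the most similar course. A gene picked by the rule for similar courses is not reported here.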

Additional observations from a re-analysis of the deposited data

How the results depend on the processing

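With 2 libraries per time, small changes rest on few values. Of 63 member values followed, 575 recomputations under other settings kept direction and call, 27 lost the call, 14 gained one and 14 turned in sign, and with 1 library left out these were 209, 29, 7 and 7. The counts of members called in this paragraph stand beside no share of all genes under the same setting. The count was 1 at 1.5 h and 3 at 3 h when only the groups compared were fitted. At an adjusted p under 0.01 it was 4 at 3 h and 1 from 24 to 72 h. With each library's GC trend removed it was 5 from 24 to 72 h, also with the block. Leaving out 1 library, the count at 0.5 h ran from 0 to 4, that at 1.5 h from 0 to 4, that at 3 h from 4 to 6 and that from 24 to 72 h between 1 and 2. The signs that turned were those of values not called in the fit of all libraries, apart from TFRC at 3 h, which was 0.46 and called there. TFRC became -0.24 at 3 h and -0.32 at 6 h on counts scaled from TPM, and -0.08 at 6 h on total counts. TFR2 at 0.5 h became 0.08 and SLC11A2 -0.01 with the GC trend removed, with or without the block, and on counts scaled from TPM SLC11A2 was -0.14 and SLC40A1 -0.11 at 0.5 h. IREB2 at 6 h became -0.35 on total counts, -0.04 on counts scaled from TPM and -0.17 with the GC trend removed, with or without the block, and at 24 h it was -0.14 on total counts. With 1 library left out, TFRC at 72 h ran from -0.33 to 0.12, FTH1 at 0.5 h from -0.43 to 0.10, and IREB2 ran at 6 h from -0.16 to 0.21, at 24 h from -0.06 to 0.31, and between -0.34 and 0.02 at 72 h. Across genes the log2 fold change followed GC content at 0.5 h (r = -0.76) and 1.5 h (r = -0.43), and scaling to total counts put the median of all genes at -0.35 at 6 h, where it was 0 before, at -0.28 at 3 h and -0.26 at 24 h, and the share of calls that were higher at 6 h went from 48.6% to 30.3%. The cause of these shifts was not tested. Replicate numbers are shared by the times but the labels name no batch, and the main fit did not take the numbers as a pairing. The replicate differences of 2 times correlated at -0.30 to 0.60 (median 0.27, over 0.1 in 24 of 28 pairs). Most pairs of times thus shared part of the replicate difference, which the main fit did not model. Its source was not tested. With the replicate block the count of members called was 7 at 6 h, 7 at 72 h and 4 from 24 to 72 h, and TFRC at 6 h (0.29) and FTH1 at 72 h (-0.35) passed.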

Other observations

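A low level at 6 h was also seen in 3 genes of iron and haem transport outside the naming rule, which were picked after their values were seen. Their lists as a whole do not show it in most genes: 4 of 13 uptake genes and 4 of 8 haem genes were called lower at 6 h, where 29.4% of all genes were. SLC48A1, a transporter that moves haem out of endosomes and lysosomes, had 62.8 and 82.0 CPM at 0 h, 10.3 and 10.4 CPM at 6 h, then 23.5 and 25.9 CPM at 72 h. Its fall by 2.81 on the log2 scale at 6 h and its rise from 6 to 24 h both passed (edgeR adjusted p = 9.74e-10 and 1.35e-05). SLC39A14, a transporter of iron not bound to transferrin, had 103 and 101 CPM at 0 h, 20.7 and 19.6 at 6 h, then 82.4 and 65.8 at 72 h (-2.33 at 6 h, 1.48 from 6 to 24 h, edgeR adjusted p = 3.05e-09 and 4.91e-07). STEAP3, the endosomal ferrireductase that works beside SLC11A2, had 16.6 and 17.7 CPM at 0 h, 4.23 and 3.65 at 6 h, then 12.6 and 13.4 at 72 h (-2.12 at 6 h, 1.54 from 6 to 24 h, edgeR adjusted p = 7.73e-09 and 3.64e-07). Among the 12 erythroid markers, 3 transcription factors, also picked after their values were seen, were low at 6 h, while the sum of the 12 was 1743 to 2127 CPM at 0 h and 1449 to 1674 CPM at 6 h, most of it the globins HBG1, HBG2 and HBE1. GATA1 had a mean of 131 CPM at 0 h, 9.64 at 6 h and 133 at 72 h, and NFE2 89.0, 1.86 and 53.2 CPM, while KLF1 had 52.6, 1.37 and 2.87 CPM. TAL1, also a transcription factor of the list, did not fall to such a low level, with 183, 139 and 234 CPM.

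FLVCR1 and BLVRA, of the haem list, also lie outside the naming rule and were picked after their values were seen. Of the 8 genes of that list, 2 were called higher and 3 lower at 72 h, or 62.5% beside 58.6% of all genes. FLVCR1, the haem exporter of the plasma membrane, went against the fall of the iron exporter SLC40A1. It had 36.6 and 32.7 CPM at 0 h, 40.8 and 38.2 at 6 h, then 89.9 and 67.9 CPM at 72 h, a rise of 1.19 on the log2 scale at 72 h (edgeR adjusted p = 1.21e-06). BLVRA, the partner of BLVRB in biliverdin reduction, had 42.3 and 46.9 CPM at 0 h, 16.5 and 18.0 at 6 h, then 10.8 and 9.31 at 72 h, and fell by 2.14 at 72 h (edgeR adjusted p = 8.64e-10).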
